A study of Mus musculus with 4 samples.

Results

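Genes that mark type 1 classical dendritic cells (cDC1), 10 in all, were followed in Runx3-deficient and wt Esam dendritic cells (DC) of the spleen: Xcr1, Clec9a, Cd8a, Cd8b1, Cadm1, Gcsam, Naaa, Wdfy4, Ppt1 and Btla. They were chosen as genes associated with cDC1, and all 10 had a probe set annotated with that symbol alone, out of 9894 genes with such a probe set above background. Wdfy4 had 2 probe sets, and the brighter one over the 4 arrays stands for it. Samples were Esam DC sorted from the spleens of 6-week-old mice labelled male, 1 Affymetrix array per mouse, in 2 groups. The 2 cKO mice (DCRunx3 -/-) carried floxed Runx3 alleles and Cre under the CD11c promoter, which is also active in CD11c-expressing cells other than this subset. The 2 wt mice were their littermates, labelled DCRunx3 +/+. Controls of this cross are elsewhere described as Runx3 fl/fl without Cre, which the labels of these arrays do not state. The labels form 2 litters, each with 1 cKO and 1 wt mouse. Values are log2 values from robust multichip averaging (RMA). A difference is the cKO mean less the wt mean in log2 units, so 1 is a doubling. Probe sets that reached 6.5 on at least 1 array, the background limit of the methods, were tested, 18889 in all.

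Splenic classical DC comprise cDC1, which express XCR1, CLEC9A and CD8 alpha, take up dead cells and present their antigens to CD8+ T cells, and CD11b+ DC (cDC2), to which Esam DC belong. The factors Irf8, Batf3, Id2 and Nfil3 are needed for cDC1, whereas Irf4 and Notch2 act in CD11b+ DC. Runx3, the deleted gene, encodes a transcription factor of the Runt family that binds DNA together with Cbfb.

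The arrays are named as labelled. Xist, the noncoding RNA of the inactive X chromosome, stood at 12.78 (cKO) and 12.75 (wt) in litter 1 and at 5.19 (cKO) and 5.15 (wt) in litter 2, which for litter 1 goes against the label male. Kdm5d, on the Y chromosome, was at 5.19 (cKO) and 5.27 (wt) in litter 1 and at 9.89 (cKO) and 9.84 (wt) in litter 2. Each genotype holds 1 array of either kind, so differences are also given within each litter. The Runx3 probe set was at 11.47 and 11.45 on the cKO arrays and at 11.37 and 11.51 on the wt arrays. The sources used here do not place it relative to the deleted exons, and it is no check of the genotypes. Markers of the sorted population were present on every array: Esam was at 10.60 and 10.64 in cKO and at 10.42 and 10.10 in wt, Cd4 at 11.98 and 12.09 in cKO and at 11.69 and 11.64 in wt, and Itgax (CD11c) at 13.12 on both cKO arrays and at 13.01 and 12.99 in wt. All 14 markers of Esam DC and of cDC in general were tested, and 8 had a difference above 0 and 6 below. Those below 0 were Cd209a (-0.38), Zbtb46 (-0.28), Irf4 (-0.26), Clec4a4 (-0.19), Flt3 (-0.08) and Notch2 (-0.01). Of the 14, 1 passed the thresholds of the study, explained with the next result. It was Itgam, the CD11b gene, which was 1.68-fold higher in cKO and did not pass with the litter as a block.

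Of the 10 cDC1 genes, 7 were higher in cKO past the study's thresholds and 3 were not past them. To pass, a probe set had to change by 1.5-fold or more, in either direction, and stay within 0.05 for the unadjusted p-value of the methods' one-way comparison of genotypes. Among all 18889 tested probe sets 1.41% passed, 0.9% higher in cKO and 0.514% lower. The 7 genes were Xcr1, Clec9a, Cd8a, Cadm1, Gcsam, Naaa and Ppt1. Btla and Cd8b1 were higher without passing, and Wdfy4 was lower. Both cKO arrays lay above both wt arrays for 9 of the 10 genes, against 16.4% of all probe sets, and below them for Wdfy4, as for 23.7% of all. The median difference of the 10 genes was 1.00, and that of all tested probe sets was -0.02. In bulk RNA a larger number of cells of a type and more RNA per cell cannot be told apart. The members were chosen with results of these data known, so no test was made of the 10 as a list.

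None of the 10 passed limma's test with Benjamini-Hochberg adjustment over all 18889 probe sets, where 0% were called and the smallest adjusted p of any probe set was 0.0834. At an unadjusted p under 0.05 limma held 9 of the 10 genes, all but Cd8b1, 8 of them higher in cKO. Of all probe sets 1771 (9.38%) did so, 4.57% being higher in cKO. The methods' one-way test called 0 probe sets after adjustment. With 1 probe set per gene in the fit, 2 genes passed (Clec9a and Cadm1, each with adjusted p = 0.0345), where 0.424% of 9894 genes did. With the litter as a block in that fit, the 7 genes passed, with adjusted p from 0.0046 to 0.0286, where 4.13% did. That last fit was added after seeing the data and leaves 1 residual degree of freedom. With the litter as a block over all probe sets, Cadm1 alone passed the study's thresholds (0.487% of all were higher), with the folds unchanged and 1 residual degree of freedom. With any 1 array left out, which also leaves 1 residual degree of freedom, fewer of the 10 passed the study's thresholds. The median difference of the 10 genes then ran from 0.89 to 1.14. Without the wt array of litter 2, Ppt1 (difference 0.57) and Cd8b1 (0.38) fell under 1.5-fold.

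**Figure D1:**
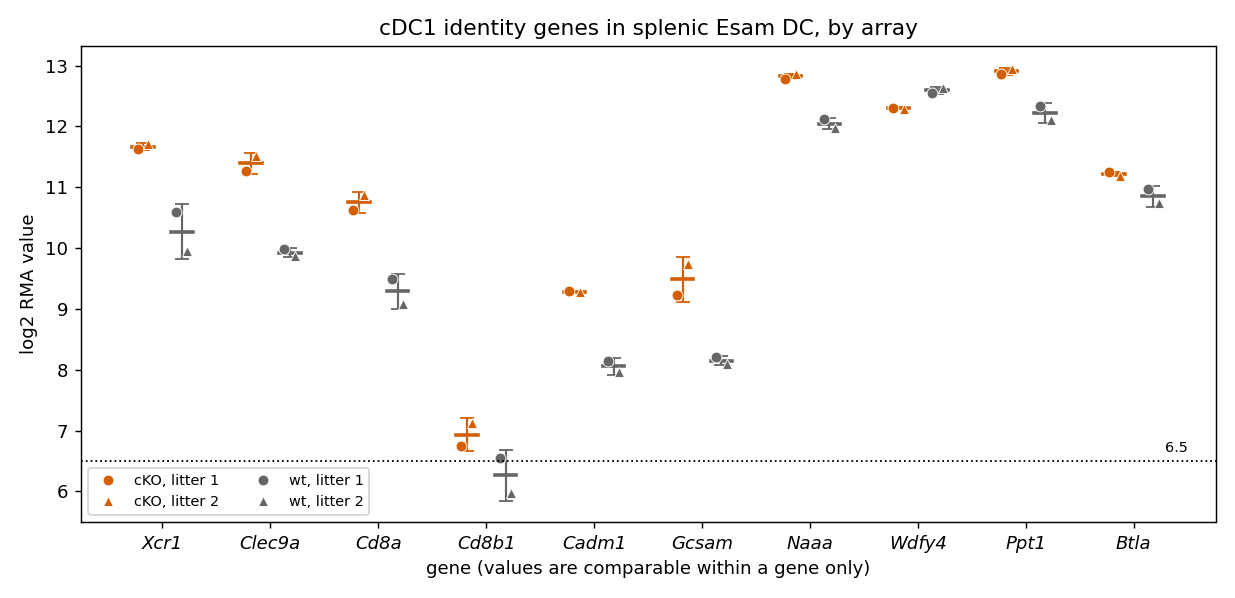
Log2 RMA value (y axis) of each of the 10 cDC1 genes (x axis) on each array, cKO (orange) left of wt (grey), circles for litter 1 and triangles for litter 2. Bars are the mean and SD of 2 arrays, and the dotted line is the limit of 6.5. Both cKO values lie above both wt values for 9 genes and below them for Wdfy4.

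A chemokine receptor and a lectin define cDC1 at the cell surface. Xcr1, the receptor for the chemokine XCL1, was at 11.63 and 11.71 on the cKO arrays and at 10.59 and 9.95 on the wt arrays. The groups did not overlap, and most of the spread lay between the wt mice. The difference was 1.40 (2.64-fold, limma standard error 0.23, adjusted p = 0.262), the one-way p being 0.0483, just inside the study's limit. Clec9a, the C-type lectin that recognises actin of dead cells, was at 11.27 and 11.51 in cKO and at 9.98 and 9.87 in wt. The groups were far apart relative to their spread, with a difference of 1.47 (2.76-fold, limma standard error 0.12, adjusted p = 0.158). Among all tested probe sets Clec9a had rank 27 from the top and Xcr1 rank 33.

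Cd8a and Cd8b1 lie side by side in RefSeq gene order and encode the chains of CD8, the coreceptor whose alpha chain cDC1 display as a homodimer. Cd8a was at 10.63 and 10.88 in cKO and at 9.49 and 9.08 in wt, a difference of 1.46 (2.76-fold, standard error 0.18, adjusted p = 0.210). The groups did not overlap, and CD8 was one of the proteins used to sort the cells. Clec9a and Cd8a had the widest differences of the 10 genes and were not apart beyond their errors. Cd8b1 was at 6.74 and 7.12 in cKO and at 6.55 and 5.97 in wt. The wt mean of Cd8b1, 6.26, lay under the limit of 6.5 that the methods set as background, and the difference of 0.67 had a 95% interval of -0.02 to 1.36 (limma, adjusted p = 0.544). In litter 1 the 2 genotypes were 0.18 apart for Cd8b1 and 1.13 apart for Cd8a, and in litter 2 the distances were 1.15 and 1.79. With wt values near background the size of the Cd8b1 change is not well measured, and the changes of the 2 genes were not compared by a test.

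Cadm1, an adhesion molecule of the immunoglobulin family that binds CRTAM on T cells, was at 9.29 and 9.28 in cKO and at 8.15 and 7.96 in wt. The cKO arrays were nearly equal, and the difference of 1.23 (2.34-fold) had a standard error of 0.10 (limma, adjusted p = 0.158). Gcsam, a signalling adaptor first described in germinal centre B cells, was at 9.23 and 9.75 in cKO and at 8.20 and 8.10 in wt, a difference of 1.34 (2.53-fold, standard error 0.20, adjusted p = 0.228). Here the spread lay mainly between the cKO mice. Btla, an inhibitory receptor for the TNF receptor family member HVEM, was at 11.24 and 11.19 in cKO and at 10.97 and 10.73 in wt. The groups were separate but close, with a difference of 0.36 (1.29-fold, 95% interval 0.04 to 0.68, limma, adjusted p = 0.486).

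The remaining 3 genes encode proteins of the endolysosomal system and of antigen handling. Naaa, a lysosomal amidase that hydrolyses N-acylethanolamines, was at 12.79 and 12.86 in cKO and at 12.12 and 11.98 in wt, a difference of 0.77 (1.71-fold, standard error 0.10, adjusted p = 0.209). Ppt1, the lysosomal palmitoyl-protein thioesterase, was at 12.86 and 12.95 in cKO and at 12.34 and 12.11 in wt, a difference of 0.68 (1.60-fold, standard error 0.12, adjusted p = 0.269). Of the 10 genes Naaa and Ppt1 had the most similar profiles once each was centred on its mean (Euclidean distance 0.116 over 4 arrays). Ppt1 was the nearest above the limit of fold among the 7 genes, and Cd8b1, at 1.59-fold, missed on p alone.

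Wdfy4, a BEACH-domain protein that cDC1 need to cross-present cell-associated antigen, ran the other way. It was at 12.31 and 12.29 in cKO and at 12.55 and 12.63 in wt, with a spread (SD) of 0.01 in cKO and 0.06 in wt. The difference of -0.29 had a 95% interval of -0.53 to -0.06 (limma, adjusted p = 0.457), was 1.23-fold in size and lay at percentile 7.83 of all differences. Its second probe set gave 12.17 and 12.12 in cKO and 12.40 and 12.42 in wt, a difference of -0.27. Both probe sets were below the wt arrays on both cKO arrays and in both litters.

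**Figure D2:**
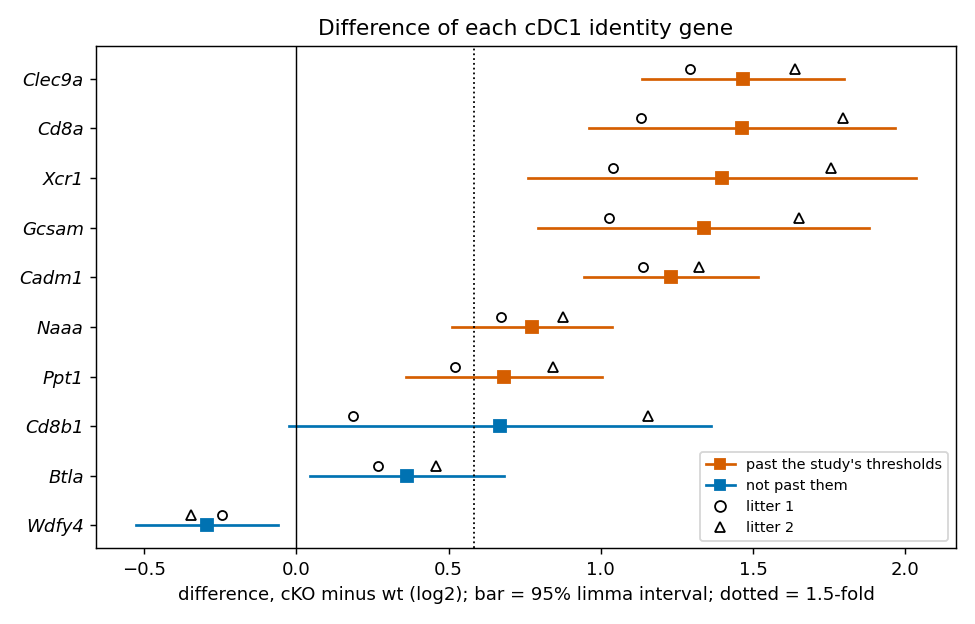
Difference (x axis, cKO minus wt, log2) of each of the 10 genes (y axis, ordered by size), with the 95% limma interval as a bar and the difference within litter 1 (open circle) and litter 2 (open triangle). Orange genes passed the study's thresholds and blue ones did not; the dotted line is 1.5-fold. The 7 orange genes run from 0.68 to 1.47, and Wdfy4 at -0.29 is the only gene below 0.

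The 7 genes past the thresholds comprised 5 with differences from 1.23 to 1.47 (Cadm1, Gcsam, Xcr1, Cd8a and Clec9a) and the pair Naaa and Ppt1 at 0.77 and 0.68. This grouping was made from the differences themselves and carries no test.

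Within litters the difference was larger in size in litter 2 for all 10 genes, against 56.1% of all probe sets and 61.8% of the 170 that were higher past the study's thresholds. The median over the 10 genes was 0.85 in litter 1 and 1.24 in litter 2, while over those 170 probe sets the medians were 0.87 and 0.92. For 9 of the 10 genes the litter 2 wt array was below the litter 1 wt array (59% of all probe sets), by 0.63 for Xcr1, 0.59 for Cd8b1 and 0.41 for Cd8a. For 7 of the 10 the litter 2 cKO array was above the litter 1 cKO array (52.5% of all probe sets). With 1 array per genotype and litter the difference between litters cannot be tested. The litters also differ in Xist and Kdm5d, so litter and apparent sex cannot be told apart, here or in the litter block.

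**Figure D3:**
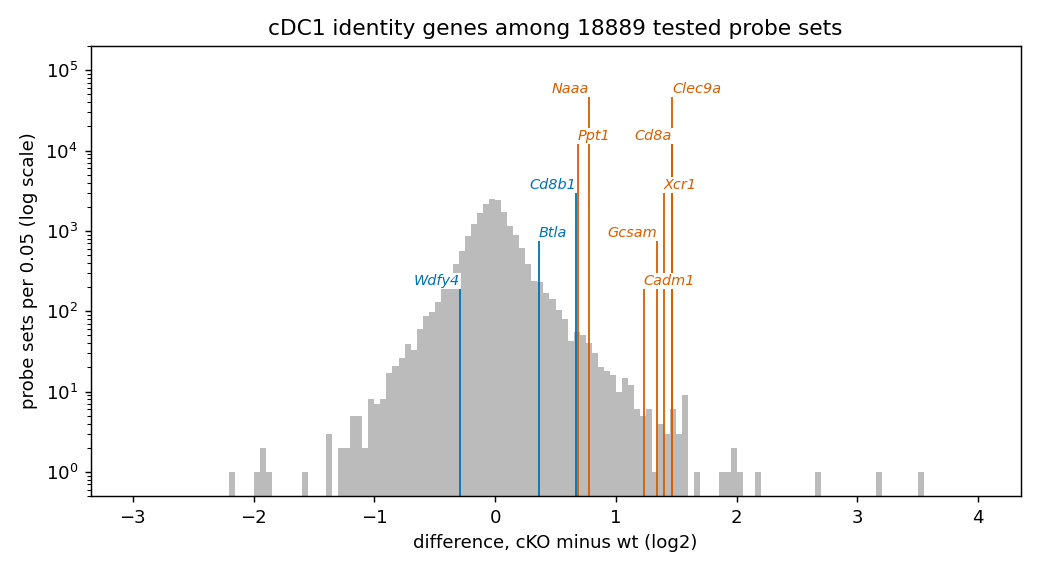
Distribution of the difference (x axis, cKO minus wt, log2) over 18889 tested probe sets (grey bars, y axis on a log scale), with a line at the difference of each of the 10 genes, orange for those past the study's thresholds and blue for the others. Clec9a is at rank 27 from the top, and Wdfy4 lies at percentile 7.83.

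The promoters are given because the deleted gene encodes a DNA-binding factor. RefSeq promoter windows (GRCm38.p6, 250 bases before to 50 after the start, read on the gene's strand) were on hand for 8 of the 10 genes, and Cd8b1 and Cadm1 had no entry. The Runx core TGTGGT or TGCGGT, on either strand, was found in 3 of the 8, namely Cd8a, Wdfy4 and Btla, and in 22.4% of all 32851 windows. TGTGGT was in the windows of Wdfy4 and Btla, neither of which passed the thresholds (16.8% of all windows), and TGCGGT in that of Cd8a (6.45%). GAGGAA, a PU.1 type Ets core, was in Cd8a, Gcsam and Btla (28.3% of all), where the copies in Btla adjoin, and an Irf type motif, 2 copies of GAAA with any 2 bases between, was in none of the 8 (3.44% of all). Windows are shown for Cd8a, Wdfy4 and Btla, which hold a Runx core, and for Clec9a, among the widest differences, which holds none of these motifs. Capitals mark the motifs, written as their complement where the match lies on the other strand. The windows are Cd8a at chr6:71373177-71373476 (+ strand), Wdfy4 at chr14:33185017-33185316 (- strand), Btla at chr16:45224087-45224386 (+ strand) and Clec9a at chr6:129408612-129408911 (+ strand). A match describes these letters only and is not a site of binding.
Cd8a: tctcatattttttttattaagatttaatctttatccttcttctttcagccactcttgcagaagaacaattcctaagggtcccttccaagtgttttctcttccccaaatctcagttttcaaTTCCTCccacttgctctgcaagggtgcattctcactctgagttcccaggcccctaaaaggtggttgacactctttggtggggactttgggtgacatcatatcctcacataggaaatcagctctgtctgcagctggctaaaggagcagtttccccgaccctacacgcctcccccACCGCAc
Wdfy4: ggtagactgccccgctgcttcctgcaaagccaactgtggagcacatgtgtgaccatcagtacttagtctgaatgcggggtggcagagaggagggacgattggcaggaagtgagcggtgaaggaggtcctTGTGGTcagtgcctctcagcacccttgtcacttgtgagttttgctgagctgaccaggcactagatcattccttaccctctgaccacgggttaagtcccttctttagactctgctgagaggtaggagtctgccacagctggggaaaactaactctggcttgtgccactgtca
Btla: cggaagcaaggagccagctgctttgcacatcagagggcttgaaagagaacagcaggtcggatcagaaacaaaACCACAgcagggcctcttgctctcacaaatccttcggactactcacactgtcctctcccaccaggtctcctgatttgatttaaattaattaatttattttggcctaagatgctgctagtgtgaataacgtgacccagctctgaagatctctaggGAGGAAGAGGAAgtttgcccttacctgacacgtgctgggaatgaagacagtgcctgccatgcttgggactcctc
Clec9a: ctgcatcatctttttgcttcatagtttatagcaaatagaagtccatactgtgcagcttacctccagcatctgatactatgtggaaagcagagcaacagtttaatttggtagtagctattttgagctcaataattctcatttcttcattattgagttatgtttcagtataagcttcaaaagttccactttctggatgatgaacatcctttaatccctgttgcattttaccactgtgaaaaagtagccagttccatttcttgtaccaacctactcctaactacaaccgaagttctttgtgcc

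Most other genes associated with cDC1 were also higher in cKO, though not all, in a list written with results of these data known. Of 23 such genes 22 had a probe set and 19 were tested, of which 10 were higher in cKO past the study's thresholds, 0 lower and 9 not past them. With the litter as a block 6 of the 10 still passed (Rab7b, Plpp1, Irf8, Tlr3, Hepacam2 and Pianp), and Cd36, Ifi205, Cxcl9 and Gpr33 did not. Of all tested probe sets 0.9% were higher past the thresholds. The median difference of the 19 was 0.82, with 15 above 0 and 4 below. Both cKO arrays lay above both wt arrays for 14 of the 19, against 16.4% of all probe sets. They lay below for 2, against 23.7%. Irf8, the factor on which cDC1 depend, was at 11.32 and 11.38 in cKO and at 10.25 and 10.18 in wt. Rab7b, a small GTPase of endosomes, was at 9.97 and 10.01 in cKO and at 8.65 and 8.51 in wt, and Plpp1, a lipid phosphate phosphatase, at 7.91 and 7.95 in cKO and at 6.72 and 6.64 in wt. The scavenger receptor gene Cd36 was at 10.16 and 10.19 in cKO and at 8.86 and 8.52 in wt. In these 4 genes the groups were separated by more than the spread within either, with limma adjusted p from 0.158 to 0.163. The other cDC1 factors were not higher in cKO. Batf3, the AP-1 partner of Irf8 in cDC1, was at 9.12 and 9.11 in cKO and at 9.28 and 9.53 in wt (difference -0.29, adjusted p = 0.559), Id2, an inhibitor of E proteins, differed by -0.15, and Nfil3 was under 6.5 on every array. Septin3, a cytoskeletal GTP-binding protein, differed by -0.49 with overlapping groups.

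None of the tested ligands and signalling partners of the 10 genes passed the study's thresholds. Of 11 listed, 9 had a probe set and 6 were tested. Tnfrsf14, which encodes the BTLA ligand HVEM, was at 10.07 and 9.96 in cKO and at 10.33 and 10.19 in wt (difference -0.24, limma adjusted p = 0.589), and Syk, the kinase used by CLEC9A, differed by 0.03. Xcl1 and Crtam, the partners of XCR1 and CADM1, were under 6.5 on every array. Of 15 paralogs 10 were tested, and 3 were higher past the thresholds: Clec12a (2.85-fold), Clec7a, the receptor for fungal beta-glucan (1.86-fold), and Ppt2, the second palmitoyl-protein thioesterase (1.92-fold). The share of all tested probe sets was 0.9%. With the litter as a block 1 of these paralogs passed, Clec12a. Cx3cr1, the fractalkine receptor gene, was 1.98-fold higher and did not pass, and Wdfy2 differed by -0.23.

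Markers of other cells in the gate were compared because several of the 10 genes are not confined to cDC1. T cells also express Cd8a and Cd8b1. Of 9 T cell markers with a probe set 8 were under 6.5 on every array, among them Cd3d, Cd3e and Cd3g, and Thy1 (6.45 and 6.51 in cKO, 6.55 and 6.06 in wt) overlapped between the groups. Of 6 NK cell markers 5 were under 6.5 throughout and Klrd1 differed by -0.08. B cells express Btla and Gcsam. Of 7 B cell markers with a probe set 5 were tested and none passed the thresholds, with Pax5 and Ebf1 under 6.5 on every array, Cd79b at 0.50, Cd79a at 0.43, Ms4a1 at 0.34, Cd22 at -0.34 and Blk at -1.40. Blk was under 6.5 on both cKO arrays (6.41 and 6.42) and was tested only through its wt values, 7.40 and 8.22. The median of the 5 tested markers was 0.34, with both cKO arrays above both wt arrays for Cd79a and Cd79b and below them for Cd22 and Blk. Of all tested probe sets 16.4% lay above in this way and 23.7% below. Averaged over the 7, the level was 8.30 and 8.19 in cKO and 8.33 and 8.18 in wt.

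Markers of myeloid cells and of plasmacytoid DC (pDC) had higher mean levels in cKO, as the cDC1 genes had. For the counts that follow, 0.9% of all tested probe sets were higher past the study's thresholds. All 8 tested macrophage markers were above 0 and 2 passed the thresholds (C1qb, a complement subunit, at 1.78-fold and Spic at 1.66-fold, which did not pass with the litter as a block), with a median difference of 0.73. The mean level of 9 markers was 9.997 and 10.08 in cKO and 9.35 and 9.63 in wt, and Fcgr1 was under 6.5 on every array. Of 4 tested monocyte markers 3 passed (Ace, angiotensin-converting enzyme, at 4.08-fold, Treml4 at 1.63-fold and Ccr2 at 1.58-fold, Ccr2 with both wt arrays under 6.5), and the mean level of the 5 markers with a probe set was 9.06 and 9.34 in cKO and 8.31 and 8.51 in wt, with Cd14 under 6.5 throughout. Of 7 pDC markers 6 were above 0 and 1 passed, Cox6a2, a subunit of cytochrome c oxidase, at 6.40-fold. Cox6a2 was at 9.11 and 9.38 in cKO and at 6.36 and 6.77 in wt, the wt values lying around the limit of 6.5. The mean level of the 7 was 8.61 and 8.71 in cKO and 7.94 on both wt arrays, and the pDC receptor gene Siglech differed by 0.61 without passing. The sort took CD11c+ MHCII+ cells by Esam, CD4 and CD8. The population is described as CD4+ and Esam-high, and elsewhere as CD11b+ and Esam-high. The labels do not give the sign of the CD8 gate, and the methods give no purity of the sorted cells. Whether cells of these types or of cDC1 have a part in the differences of the 10 genes was not tested.

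**Figure D4:**
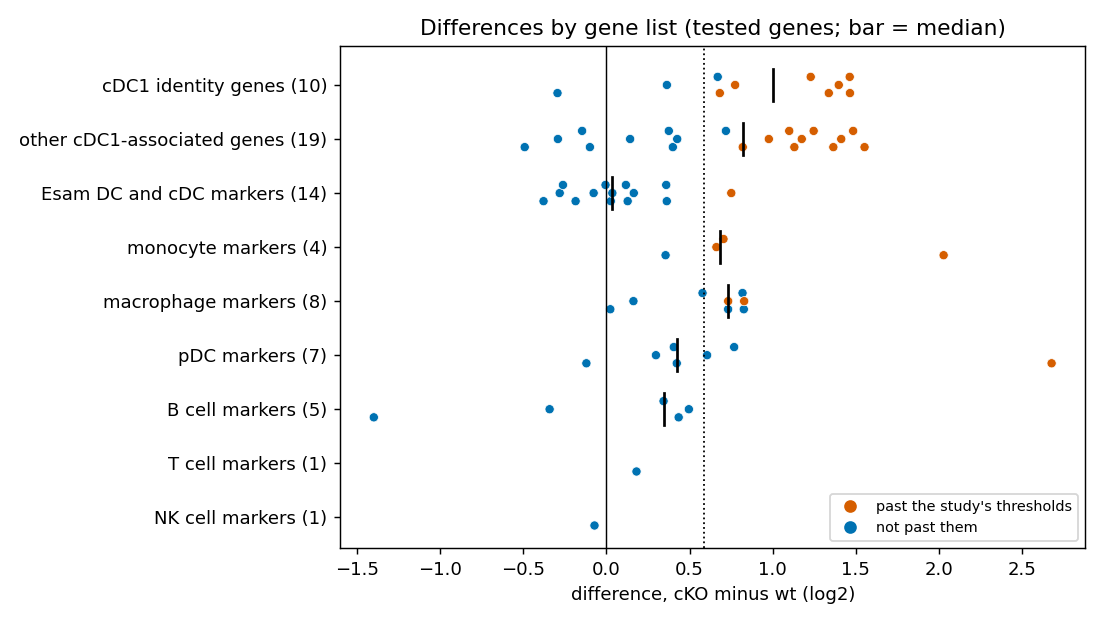
Difference (x axis, cKO minus wt, log2) of each tested gene of 9 lists (y axis, with the number tested), orange for genes higher past the study's thresholds, blue for the others, with the median as a bar and 1.5-fold as a dotted line. The medians were 1.00 for the 10 cDC1 genes, 0.82 for the other cDC1-associated genes and 0.03 for the markers of Esam DC. They were 0.73 for the macrophage, 0.68 for the monocyte, 0.42 for the pDC and 0.34 for the B cell markers. The T cell and NK cell lists had 1 tested gene each.

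The genes whose centred profiles over the 4 arrays were nearest to those of 3 of the 10 were looked up among 9894 genes. Nearest to Xcr1 was Gpr33, a chemoattractant-like receptor gene (Euclidean distance 0.0494), then Cd8a (0.208) and Il1rn, the interleukin 1 receptor antagonist (0.214). Nearest to Clec9a were Gpr141b, an orphan receptor gene (0.0894), Rab7b (0.152) and P3h2, a collagen prolyl hydroxylase gene (0.176), and nearest to Cd8a were Cd36 (0.169), Gpr33 (0.200) and Xcr1 (0.208). Gpr33 was at 8.08 and 8.15 in cKO and at 7.04 and 6.46 in wt, and Gpr141b at 11.71 and 12.01 in cKO and at 10.35 and 10.30 in wt. With 4 arrays these distances describe the profiles and single out no gene.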

How the data were processed

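RNA of sorted Esam DC from 4 mice was hybridised to Affymetrix mouse ST 1.0 arrays, named exon arrays in the methods and annotated as gene arrays. The deposited log2 values were made by the authors with RMA and GC correction in Partek, whose version the sources used here do not give, with mm9 named as the build in the submitters' processing notes, and are background-corrected and normalized between arrays. RMA compresses folds of dim probe sets. Array medians were 6.58 to 6.62, no 2 arrays shared more than 5 equal values, and the number of arrays limits the precision. Probe sets reaching 6.5 on at least 1 array (18889 of 35399) were tested, cKO against wt, with limma (version 3.58.1, R 4.3.3; lmFit, eBayes, two-sided, Benjamini-Hochberg at 0.05, 2 residual and 2.2 prior degrees of freedom) and with the study's thresholds. Probe sets were named by the platform annotation where it gives 1 symbol, and a gene was represented by its brightest probe set. RefSeq (GRCm38.p6) gave gene order, older symbols and promoter windows. Labels pair the mice by litter, and deviations of litter mates from their group means correlated (r = 0.266 over probe sets), so the litter was a block in an alternative fit. Mice are separate animals, and the 2 mice of a genotype also differ in litter and in Xist. The p-values set a difference against the spread between these mice, which limma moderates over all probe sets.

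The members, the gene lists and the rule for named genes were chosen with earlier results of these data known. The rule took the 10 genes, Runx3, up to 4 genes per list with the smallest unadjusted p, up to 2 that ran the other way, defining markers, RefSeq neighbours and the nearest profiles. The limma step was tested on simulated data. Alternatives were the litter block, each array left out, other filters on low values, further normalization, limma with trend and robust, the methods' test, 1 probe set per gene and the mean of a gene's probe sets.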

Additional observations from a re-analysis of the deposited data

How the results depend on the processing

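With 1 array left out at a time the median difference of the 10 genes ran from 0.89 to 1.14, and under the stricter filter it was 1.23, since Cd8b1 then drops out. Cd8b1 ranged from 0.38 (without wt replicate 2) to 0.96 (without wt replicate 1). The genes past the study's thresholds numbered 7 in all settings but these: 1 (Cadm1) with the litter as a replicate block, 1 in the added fit with the block and 1 probe set per gene, and 1 to 3 with any 1 array left out, where the one-way test keeps 1 residual degree of freedom. These were Clec9a and Gcsam without cKO replicate 1, Clec9a without cKO replicate 2, Xcr1, Cadm1 and Naaa without wt replicate 1, and Xcr1 and Cadm1 without wt replicate 2. Besides Btla and Wdfy4, Cd8b1 was under 1.5-fold without cKO replicate 2 (0.48), and Cd8b1 (0.38) and Ppt1 (0.57) were without wt replicate 2. Over all probe sets the count was 267, against 135 with the block, 98 with the block and 1 probe set per gene, 493 with limma's unadjusted p, and 113 to 281 with an array left out.

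At limma's adjusted threshold 0 probe sets passed, also with the block and without any 1 array (0 to 0). The count was 1 after quantile normalization, 2 with trend and robust, 42 with 1 probe set per gene (2 of the 10 genes) and 409 with the block added to that (7 of the 10), a fit chosen after seeing the data. The last 2 fits hold fewer probe sets, which changes both the adjustment and limma's standard errors. That of Clec9a was 0.122 over all probe sets and 0.112 with 1 probe set per gene. With the block, that of Xcr1 was 0.211 and 0.170. Over all probe sets the block changed no call at this threshold. Low signal limits Cd8b1, whose wt values straddle 6.5.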

Other observations

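The nearest genes with a 1-symbol probe set on each side of the 10 cDC1 genes in RefSeq order were read. Genes without such a probe set were skipped, 20 of them before Cadm1, so not every neighbour is adjacent. Of 18 neighbours outside the 10 genes 9 were tested, and 1 was higher in cKO past the study's thresholds (0.9% of all probe sets). It was Ppef2, a protein phosphatase gene beside Naaa. Ppef2 was at 7.45 and 7.48 in cKO and at 6.82 and 6.51 in wt, 1.74-fold higher (limma, adjusted p = 0.263), and did not pass with the litter as a block. Sdad1, on the other side of Naaa, differed by 0.23. The lectin genes around Clec9a were low: Clec1b was at 6.40 and 6.93 in cKO and at 6.13 and 6.67 in wt, with overlapping groups, and Clec1a was under 6.5 on every array. Xcr1 sits between Cxcr6 and Ccr1 among named probe sets, and both of these receptor genes were under 6.5 on every array. Rmnd5a, beside Cd8a, differed by -0.05, and Cap1, beside Ppt1, by -0.07. The median difference of the 9 tested neighbours was 0.07.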
